A study of Mus musculus with 12 samples.

Results

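The genes described here are those of motile cilia and of the ependymal cells that carry them in the brain. They were chosen by symbol alone: protein-coding genes whose symbol starts with Dnah, Dnaaf, Cfap or Rsph, together with Dnai1, Dnai2, Drc1, Drc3, Drc7, Foxj1, Mcidas, Gmnc, Ccdc39, Ccdc40, Hydin, Spag6l, Spag16, Spag17 and Tekt1 to Tekt4. The rule found 82 genes among the 55487 gene identifiers counted, of which 21974 are protein-coding. They comprise 15 dynein heavy chains, 2 dynein intermediate chains, 7 dynein assembly factors, 8 radial spoke genes, 3 genes of the nexin-dynein regulatory complex, 2 ruler genes, 4 central pair genes, 4 tektins, 34 Cfap genes and 3 regulators of the ciliary programme.

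RNA was sequenced from 12 male mice, each giving 1 library, in 4 groups of 3. The knockouts were made from a floxed allele of Auts2 (Auts2tm1.1Dare, written Auts2-ex7fl/fl) in which exon 7 is targeted. The P0 knockouts are newborn forebrain labelled cmv-cre_auts2-ex7koko, where Cmv-cre is a Cre line active throughout the body. Their controls are newborn forebrain of wild-type littermates, labelled BL6 WTLM. The P14 knockouts are hippocampus at postnatal day 14 labelled nes-cre_auts2-ex7koko, where Nes-cre is active in neural progenitors and the cells that descend from them, ependymal cells included. Their controls are hippocampus labelled auts2-ex7-fl-het, heterozygous for the floxed allele, and the labels do not state whether they carry Cre. The P0 and the P14 comparison thus differ in tissue and age as well as in the Cre line and the kind of control, and these cannot be told apart.

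Library totals lay between 11247150 and 16796797 counts at P0 and between 16830720 and 23340621 at P14. The targeted gene, Auts2, was at 160, 136 and 155 CPM (read counts scaled to a common library size) in the P0 controls and at 164, 181 and 161 in the knockouts, and at 97.4, 97.8 and 110 in the P14 controls and 92.9, 77.5 and 75.1 in the knockouts. These counts sum every isoform and exon of the gene, so they do not check the loss of exon 7. Forebrain identity was present in every library: Lhx2, a transcription factor of the forebrain, lay between 79.4 and 122 CPM. Fibcd1, a marker of hippocampal pyramidal neurons, was at 203 to 218 CPM at P14 against 12.8 to 18.9 at P0. Ependymal cells are sparse in such tissue, and 16 of their markers outside the 82 genes differed widely in level. Tmem212 stayed at or below 3.37 CPM in every library, while Tppp3 lay between 15.2 and 34.5 CPM and Pltp between 16.0 and 37.1.

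Motile cilia beat because dynein motors, built from heavy and intermediate chains and assembled in the cytoplasm, pull neighbouring doublet microtubules past each other. Radial spokes, the nexin-dynein regulatory complex and the central pair control the stroke, and tektins strengthen the doublets. In the brain such cilia line the ventricles on ependymal cells, which arise from radial glia around birth and push cerebrospinal fluid along the ventricle wall, and the choroid plexus carries related cilia. GMNC (encoded by Gmnc) and MCIDAS start the multiciliated cell fate, and FOXJ1 together with RFX factors switches on the axonemal genes.

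RFX factors read a palindromic element called the X-box, whose half-site GTTGCC was searched on both strands in the 250 bases before each gene start. On the other strand it reads GGCAAC. The RefSeq table of GRCm38.p6 held 77 promoters of 69 of the 82 genes, and Foxj1 is among the 13 genes without an entry. The half-site was in 25 of the 77 promoters, 32.5%, against 10.4% of all 32851 promoters of the same length. In the last 100 bases it was in 18 of them, 23.4%, against 4.67%. By gene it was in 23 of 69, 33.3%, against 11.8% of all 27025 genes. Counted once where alternative starts of a gene share a site, there were 34 half-sites, which began at a median of 63 bases before the nearest start. Short matches of this kind are a description of the sequence and not a measure of binding. The following stretches are shown because they hold a half-site in a gene of each of several roles described below, with the half-site in capitals, read from the 5′ end along the gene's strand:
Hydin, chr8:110266940-110266976, plus strand, 13 bases before the start: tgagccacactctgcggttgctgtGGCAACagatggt
Spag16, chr1:69826835-69826888, plus strand, 111 bases before the start: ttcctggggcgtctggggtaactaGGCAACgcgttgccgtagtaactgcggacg
Dnah10, chr5:124725041-124725084, plus strand, 20 bases before the start: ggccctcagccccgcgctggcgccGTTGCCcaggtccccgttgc
Tekt2, chr4:126325689-126325734, minus strand, 22 bases before the start: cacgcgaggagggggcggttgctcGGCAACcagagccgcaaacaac
Mcidas, chr13:112993649-112993702, plus strand, 195 bases before the start: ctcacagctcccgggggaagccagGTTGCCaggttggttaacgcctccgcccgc
Cfap20, chr8:95434934-95434987, minus strand, 94 bases before the start: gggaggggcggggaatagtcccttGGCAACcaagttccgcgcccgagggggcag

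The full palindrome of the X-box was in 3 of the 77 promoters, those of Cfap20dc, Cfap298 and Dnaaf6, which is 3.90% against 0.374% of all promoters. The forkhead core TGTTTAC, which FOXJ1 and many other forkhead factors can read, was in 4 of them, 5.2% against 3.17%. Spag6l and Cfap206, on which the comparison of the ages turns, have no half-site in the window searched.

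Levels are compared between genes per kilobase of exon. The median of the 82 genes was 0.56 CPM per kb in the P0 controls and 0.51 in the P14 controls. Cfap36, which is expressed far beyond ciliated cells, was the highest in all 4 groups, at 31.8 ± 4.0 CPM per kb in the P0 controls and 40.1 ± 6.03 in the P14 controls (SD, n = 3 each). Cfap20, a protein inside the microtubule wall, and Rsph9, a radial spoke head protein, followed in all groups. They did not differ beyond their spread in the P0 knockouts, at 13.6 ± 0.993 and 13.4 ± 1.16 CPM per kb. Foxj1 came next in the P0 controls at 7.02 ± 1.60, close to Cfap300 at 6.96 ± 0.529, a difference smaller than either spread. In the P14 controls Cfap97 (7.44 ± 0.469) and Cfap300 (6.88 ± 0.458) followed them, while Drc1, a nexin-dynein subunit, followed in the P14 knockouts at 7.76 ± 2.89. Dnaaf4 and Dnaaf6 had 0 counts in all 12 libraries. Dnaaf4 shares 96.6% of its exonic bases with other annotated genes, which this counting cannot separate.

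**Figure D1:**
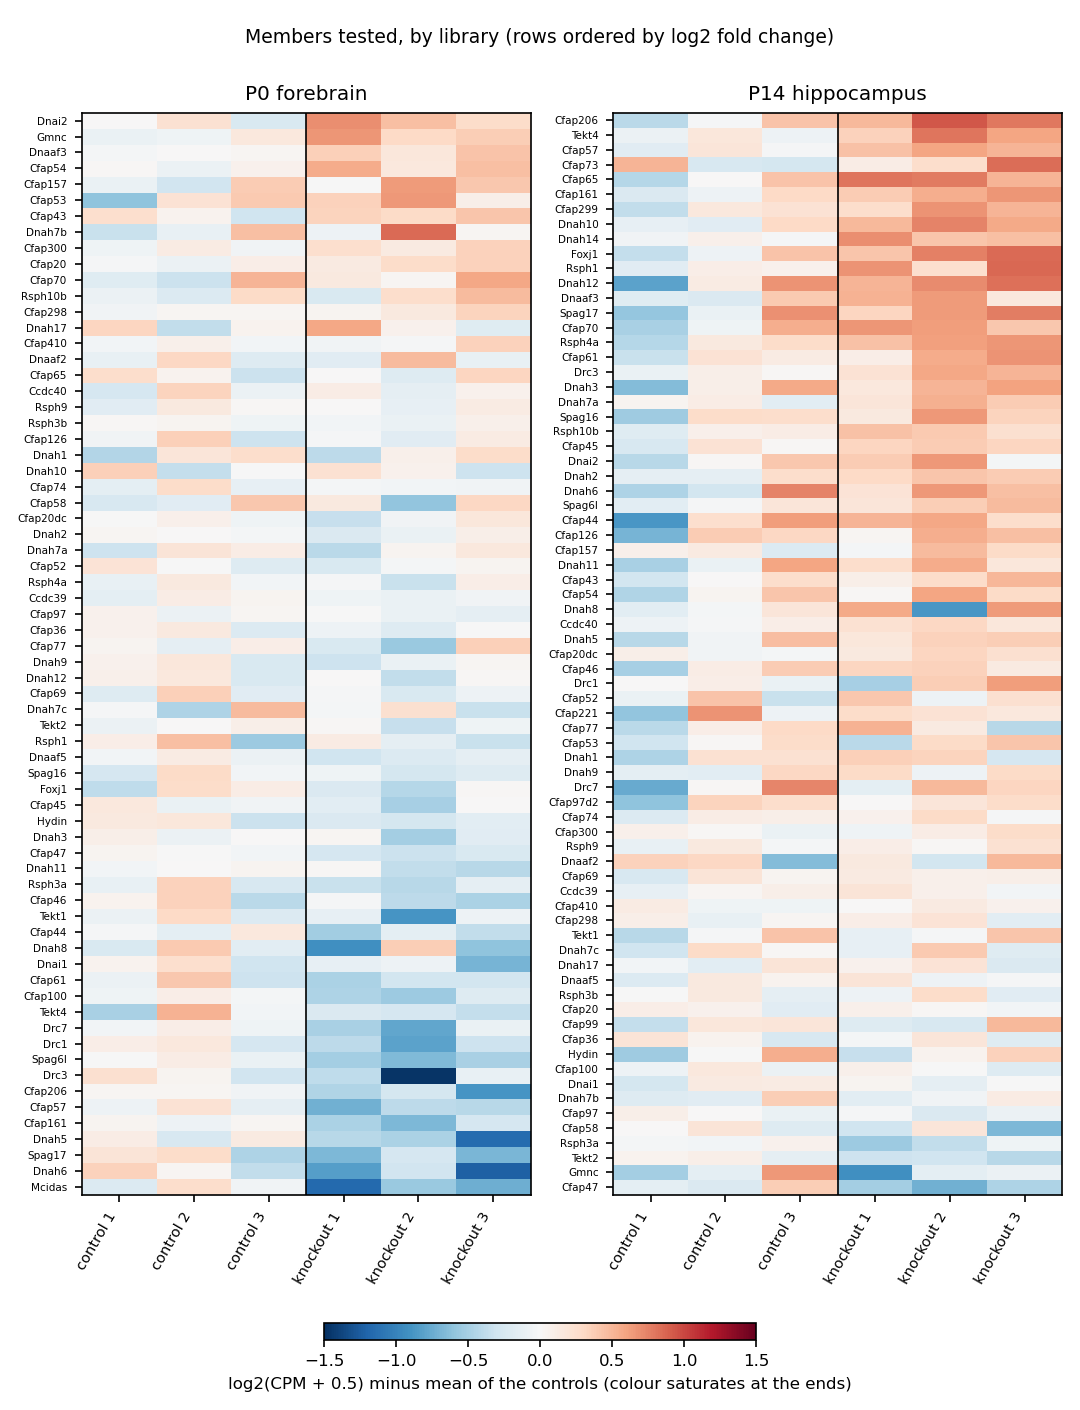
Each row is 1 of the genes with enough counts to test, and each column 1 library, P0 forebrain on the left (68 genes) and P14 hippocampus on the right (73 genes). Colour gives log2(CPM + 0.5) minus the mean of the 3 controls, with rows ordered by log2 fold change. Blue cells prevail in the P0 knockouts and red cells in the P14 knockouts, and P14 control 1 is blue where P14 control 3 is red in many rows.

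In the newborn forebrain no single gene of the 82 passed the test. Most nevertheless lay slightly lower in the knockouts: 51 of the 68 genes tested had a log2 fold change below 0, against 50.1% of all 16176 genes. Their median was -0.12 on the log2 scale, and that of all genes was 0.00. By library, their median position against the control mean was -0.03, 0.10 and -0.05 in the controls and -0.07, -0.16 and -0.06 in the knockouts. The summed CPM of the 82 genes overlapped between the groups, at 556, 611 and 544 in the controls and 531, 519 and 573 in the knockouts. The edgeR quasi-likelihood test called 0 of the 68 at an adjusted p under 0.05, where 0.909% of all genes were called. At an unadjusted p under 0.05 the count was 12 of the 68, with 3 higher and 9 lower, against 16.1% of all genes, and DESeq2 called 1 gene, against 2.36% of all. The groups of 3 did not overlap for 20 of the 68, of which 8 were higher and 12 lower in the knockouts. This is 29.4%, and for all genes it was 21.8%, with 10.7% higher and 11.1% lower. In such bulk tissue, fewer cells of a type and less RNA per cell cannot be told apart.

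None of the 3 regulators of the programme passed at P0, and they lay on both sides of 0. Foxj1, the forkhead factor that turns on motile cilia genes, lies on chromosome 11 from 116330704 to 116335399. It was at 13.8, 21.9 and 19.6 CPM in the controls and at 15.5, 13.3 and 18.4 in the knockouts. The groups overlapped, and the log2 fold change was -0.23 (SE 0.17, edgeR adjusted p 0.537). Mcidas, a coactivator that starts multiciliation, was at 1.09, 1.70 and 1.27 CPM in the controls and at 0.318, 0.745 and 0.604 in the knockouts. All 3 knockouts lay below all controls, with a log2 fold change of -1.27 (SE 0.40) that did not pass the threshold (edgeR adjusted p 0.144). Gmnc, which acts upstream of Mcidas, lay the other way, at 1.26, 1.29 and 1.60 CPM in the controls against 2.46, 1.82 and 1.93 in the knockouts. These groups did not overlap either, and the log2 fold change of 0.55 (SE 0.29) did not pass (edgeR adjusted p 0.379).

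Of the motor genes, 12 of the 14 dynein heavy chains tested at P0 were below 0, with a median of -0.13. Their summed level was 66.5, 67.1 and 67.6 CPM in the controls and 55.2, 66.6 and 58.9 in the knockouts, so 1 knockout library lay within the range of the controls. Dnah5 encodes a heavy chain of the outer arm. It was at 5.62, 4.29 and 5.70 CPM in the controls and at 3.73, 3.56 and 2.05 in the knockouts, which did not overlap. Its log2 fold change was -0.77 (SE 0.25, edgeR adjusted p 0.152). Dnah6, an inner arm chain, was at 7.97, 6.31 and 4.64 CPM in the controls and 3.26, 4.97 and 2.36 in the knockouts, where 1 knockout exceeded the lowest control. The log2 fold change was -0.85 (SE 0.28, edgeR adjusted p 0.155), and the edgeR adjusted p was 0.0483 when the model held a term for the number series of the libraries. Neither of the 2 intermediate chains passed. Dnai1 was at 1.76, 2.10 and 1.27 CPM in the controls and 1.51, 1.57 and 0.846 in the knockouts, with a log2 fold change of -0.40 and overlapping groups (edgeR adjusted p 0.622). Dnai2 was at 2.35, 2.83 and 1.94 against 4.13, 3.39 and 2.96, higher in all 3 knockouts, with a log2 fold change of 0.56 (SE 0.25, edgeR adjusted p 0.295).

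Of the genes that control the stroke, edgeR called 0 at P0. All 3 nexin-dynein genes were below 0, with a median log2 fold change of -0.51, and all 4 central pair genes were, with a median of -0.42. Of 6 radial spoke genes tested 5 were below 0, but their median was -0.05 and the groups were apart for 0 of them. Drc1, the scaffold of the nexin-dynein complex, was at 15.4, 16.1 and 11.9 CPM in the controls and at 10.8, 8.03 and 11.5 in the knockouts. The groups came within 1 CPM of each other without overlapping, and the log2 fold change was -0.51 (SE 0.16, edgeR adjusted p 0.147). Drc3 was at 6.29, 5.42 and 4.2 CPM in the controls against 3.89, 1.57 and 4.83. Drc7 was at 3.10, 3.48 and 3.04 CPM against 2.14, 1.66 and 2.96.

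Spag6l had the smallest adjusted p of the 68 genes at P0. It encodes a central pair protein needed for ciliary beating and lies on chromosome 16 from 16753016 to 16829456. Its levels were 12.6, 13.7 and 11.7 CPM in the controls and 8.74, 7.78 and 8.88 CPM in the knockouts. The gap between the groups was wider than the spread within either, and the log2 fold change was -0.58 (SE 0.14), just outside the threshold with an edgeR adjusted p of 0.0647. DESeq2 called it at an adjusted p of 0.0449, and edgeR did at 0.0407 when the model held that term. The related gene Spag6, a near copy whose reads could be confused with it, held 0 to 3 counts per P0 library. Of the other central pair genes, Hydin was at 3.02, 3.07 and 2.05 CPM in the controls and 2.22, 2.15 and 2.36 in the knockouts. Spag16 and Spag17 were at 2.73 ± 0.618 and 1.23 ± 0.444 CPM in the controls against 2.33 ± 0.197 and 0.670 ± 0.208 in the knockouts (SD, n = 3 each).

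Of 28 Cfap genes tested at P0, 18 were below 0, with a median of -0.07. Ccdc39 and Ccdc40 form the ruler that sets the repeat along the doublet. Ccdc39 was at 28.4 ± 2.65 CPM in the controls and 26.9 ± 0.460 in the knockouts, and Ccdc40 at 12.3 ± 2.77 and 12.2 ± 1.16 (SD, n = 3 each). Tekt1 was at 5.37, 7.2 and 4.92 CPM in the controls against 5.24, 2.90 and 5.44, and Tekt2 was at 2.99 ± 0.219 against 2.7 ± 0.410. Chosen after their values were seen, the Cfap genes with an unadjusted p under 0.05 were Cfap206 (log2 fold change -0.61), Cfap57 (-0.63), Cfap100 (-0.43) and Cfap44 (-0.37) on the lower side, and Cfap54 (0.42) and Cfap20 (0.25) on the higher side. Their edgeR adjusted p-values lay between 0.192 and 0.292. Cfap20 was at 49.8, 47.6 and 54.2 CPM in the controls and 55.6, 61.3 and 64.3 in the knockouts.

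The library numbers in the P0 labels fall into 2 series, with 2 knockouts and 2 controls numbered 1407 to 1410 and 1 of each numbered 1415 and 1416. The shift lay within the first series. There the knockouts were lower for 51 of the 68 genes, with a median difference of -0.23, while in the second pair 31 were lower and 37 higher, with a median of 0.04. In a fit on the 4 libraries of the first series alone, added after the depths had been seen, edgeR called 6 of the 68: Cfap20 higher, and Drc1, Drc3, Dnah6, Spag6l and Cfap36 lower. That fit called 12.9% of all genes, a larger share than of these. With the series as a term in the fit on all 6 libraries, edgeR called Spag6l (-0.58, adjusted p 0.0407) and Dnah6 (-0.86, adjusted p 0.0483), 2 of the 68 against 2.87% of all genes. What the series stands for is not stated in the labels.

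**Figure D2:**
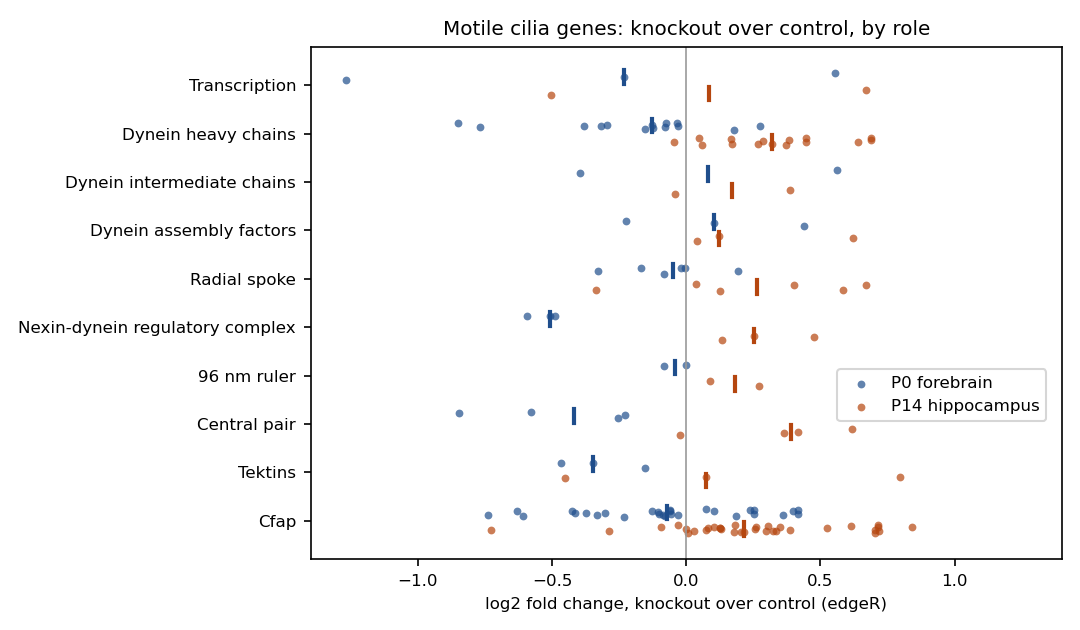
Log2 fold change of knockout over control (edgeR, horizontal axis) for each gene tested, grouped by role on the vertical axis. Points are genes, blue for P0 forebrain and orange for P14 hippocampus, and vertical bars mark the median of each role. The P14 medians lie above 0 in all 10 roles, and the P0 medians lie below 0 in 8 of them.

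In the P14 hippocampus the direction was the reverse: 62 of the 73 genes tested were higher in the knockouts, 84.9% against 48.5% of all 17208 genes. The median log2 fold change was 0.26, and that of all genes was -0.01. No single gene passed the edgeR test at an adjusted p under 0.05, where 1.99% of all genes were called. At an unadjusted p under 0.05 there were 15 of the 73, with 14 higher and 1 lower, against 15.2% of all genes. DESeq2 called 2, Cfap65 and Foxj1, both higher, against 3.1% of all genes. The groups did not overlap for 21 of the 73, 18 of them higher and 3 lower. Of all genes, 9.41% were apart on the higher side and 10.6% on the lower.

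Foxj1 was at 8.66, 10.7 and 15.3 CPM in the P14 controls and at 15.1, 19.4 and 20.6 in the knockouts. The groups overlapped only in that the highest control exceeded the lowest knockout. The log2 fold change was 0.67 (SE 0.20, edgeR adjusted p 0.135, DESeq2 adjusted p 0.0173). Gmnc was at 2.02, 2.73 and 5.11 CPM in the controls against 1.39, 2.74 and 2.86, with a log2 fold change of -0.50 (SE 0.37, edgeR adjusted p 0.573), and Mcidas, at 0.289 to 0.614 CPM in the controls and 0.278 to 0.447 in the knockouts, was too low to test.

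Every dynein heavy chain but 1 of the 15 was above 0 at P14, with a median of 0.32. Their summed level was 60.7, 70.1 and 96.8 CPM in the controls and 89.0, 90.6 and 93.1 in the knockouts, so the highest library was a control. Dnah10, an inner arm chain, was at 2.19, 2.12 and 3.11 CPM in the controls and 3.63, 4.41 and 3.87 in the knockouts. All knockouts exceeded all controls, with a log2 fold change of 0.69 (SE 0.23, edgeR adjusted p 0.143). Dnah2, another inner arm chain, did the same at 6.58, 6.58 and 8.85 CPM against 9.09, 9.84 and 9.59. Its log2 fold change was 0.38 (SE 0.16, edgeR adjusted p 0.255). Dnah14, a seldom studied heavy chain, was at 1.4 ± 0.0935 CPM in the controls and 2.24 ± 0.298 in the knockouts (SD, n = 3 each). Its log2 fold change of 0.69 turned to -0.17 when the larger of the stranded counts was used.

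Of 6 radial spoke genes tested at P14, 5 were above 0. The groups were apart on the higher side for 3 of the 6, against 9.41% of all genes, and on the lower side for Rsph3a (log2 fold change -0.34, edgeR adjusted p 0.398), against 10.6%. Rsph1, of the spoke head, was at 3.75, 4.63 and 4.48 CPM in the controls and 7.10, 5.2 and 8.13 in the knockouts. Its log2 fold change was 0.67 (SE 0.20, edgeR adjusted p 0.103). Rsph4a, also of the spoke head, was at 4.96, 7.64 and 8.37 CPM against 9.44, 10.8 and 11.1, a log2 fold change of 0.58 (SE 0.18, edgeR adjusted p 0.122). Rsph10b was at 4.08 ± 0.489 against 5.34 ± 0.402 CPM (SD, n = 3 each). Its log2 fold change was 0.40 (SE 0.18, edgeR adjusted p 0.314).

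The 3 nexin-dynein genes were all above 0 at P14, with a median of 0.25. Drc3 was at 7.33, 8.37 and 7.95 CPM in the controls and 9.24, 12 and 11.4 in the knockouts. These groups were apart, and the log2 fold change was 0.48 (SE 0.15, edgeR adjusted p 0.116). Drc1 was at 17.5, 18.8 and 16.3 CPM against 12.3, 22.8 and 27.4, with the knockouts on both sides of the controls. Drc7 was at 1.85, 3.51 and 6.11 CPM against 3.08, 5.06 and 4.45. Of the central pair, Spag6l was at 7.62, 8.48 and 9.79 CPM against 9.83, 11.2 and 12.1. Its highest control and lowest knockout differed by less than 1 CPM, and the log2 fold change was 0.36 (SE 0.15, edgeR adjusted p 0.244). Spag16 and Spag17 were at 2.41 ± 0.841 and 1.41 ± 0.864 CPM in the controls against 3.21 ± 0.671 and 2.18 ± 0.409, while Hydin was at 4.72 ± 1.91 against 4.65 ± 1.21 (SD, n = 3 each).

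Cfap65, a gene needed for sperm flagella, had the smallest adjusted p of the 73 genes at P14. It lies on chromosome 1 from 74902071 to 74935599. It was at 4.04, 5.63 and 7.69 CPM in the controls and 10.1, 9.98 and 8.19 in the knockouts. The groups were apart, with a log2 fold change of 0.71 (SE 0.21, edgeR adjusted p 0.0970, DESeq2 adjusted p 0.0408). Cfap206, an axonemal protein that anchors a radial spoke, was at 1.39, 1.95 and 2.84 CPM against 2.98, 4.27 and 3.81, also apart. The log2 fold change was 0.84 (SE 0.27, edgeR adjusted p 0.137). Cfap57 and Cfap161 had log2 fold changes of 0.72 and 0.70. Of 33 Cfap genes tested at P14, 28 were above 0, with a median of 0.22. The 5 below 0 were Cfap47, Cfap58 (-0.29), Cfap97 (-0.10), Cfap100 (-0.03) and Cfap36 (0.00), of which Cfap47 had separate groups. It was at 2.25, 2.12 and 3.42 CPM in the controls and 1.64, 1.35 and 1.72 in the knockouts, a log2 fold change of -0.73 (SE 0.27, edgeR adjusted p 0.213).

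Of 3 tektins tested at P14, 2 were above 0 and 0 were called. Tekt4 was at 1.04, 1.34 and 1.05 CPM in the controls and 1.59, 2.37 and 1.97 in the knockouts, with a log2 fold change of 0.80 (SE 0.29, edgeR adjusted p 0.196). Tekt2 was at 1.67, 1.73 and 1.42 CPM against 1.19, 1.21 and 1.08, apart on the lower side. Tekt1 was at 2.60, 3.57 and 5.06 CPM against 3.28, 3.57 and 5.02, and Tekt3 stayed at or below 0.263 CPM in every library. Ccdc39 and Ccdc40 were at 31.0 ± 2.41 and 5.10 ± 0.350 CPM in the controls and 32.7 ± 2.65 and 6.10 ± 0.337 in the knockouts (SD, n = 3 each). Dnai1 was at 3.80 ± 0.643 against 3.67 ± 0.252 CPM, and Dnai2 at 2.88 ± 0.942 against 3.73 ± 0.979. By level, 15 genes with a mean of at least 10 CPM had a median of 0.13, and the 58 below had 0.29.

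**Figure D3:**
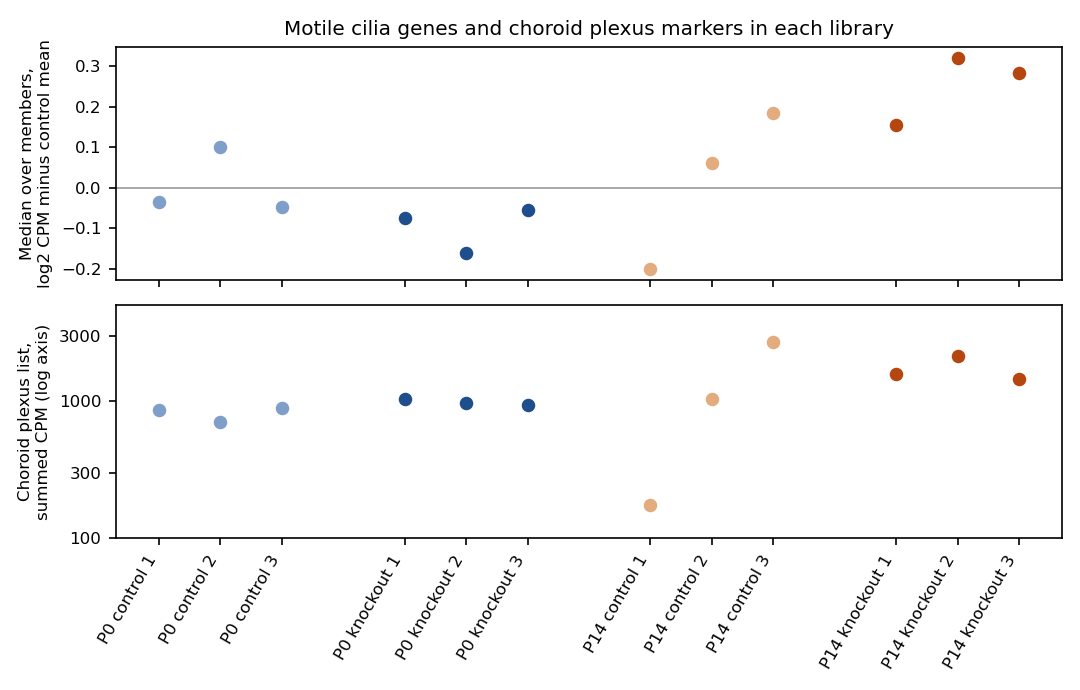
The upper panel gives, for each of the 12 libraries, the median over the genes tested of log2(CPM + 0.5) minus the control mean, and the lower panel the summed CPM of the 17 choroid plexus markers on a log axis. P14 control 1 is lowest in both panels among the P14 libraries, at -0.20 and 175 CPM, and P14 control 3 has the most choroid plexus RNA, 2693 CPM.

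The 3 P14 controls stood apart from each other. The median position of the genes was -0.20, 0.06 and 0.19 in the controls and 0.15, 0.32 and 0.28 in the knockouts, so control 3 lay inside the range of the knockouts. Control 1 was the lowest control for 50 of the 73 genes, and control 3 the highest for 38. Choroid plexus RNA varied in the same order among the controls: its 17 markers summed to 175, 1029 and 2693 CPM there and to 1577, 2129 and 1443 CPM in the knockouts. Without Ttr, the transthyretin gene that dominates the sum, the other markers gave 44.0, 114 and 288 CPM in the controls and 138, 207 and 154 in the knockouts. None of the 17 markers was at 0 in any library. At P14, 15 of the 17 were above 0, against 48.5% of all genes, with a median log2 fold change of 0.13. Of the 17, edgeR called 0, against 1.99% of all genes, and 0 had an unadjusted p under 0.05, against 15.2%. With control sums of 1299 ± 1280 CPM (SD, n = 3), these counts of 0 do not show that the groups were alike. At P0 the sums were 860, 705 and 896 CPM in the controls against 1039, 976 and 940. Their part in the results was not tested.

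The count of calls at P14 rested on these libraries. Without control 3, edgeR called 12 of 75 genes, all higher, against 10.3% of all genes: Cfap65, Cfap206, Cfap70, Spag17, Dnah2, Dnah5, Dnah6, Dnah10, Dnah12, Rsph1, Rsph4a and Foxj1. The median log2 fold change was then 0.41. Without control 1 it was 0.13, and 0 genes were called, against 0.989% of all. Leaving out any other P14 library also left 0 calls and a median between 0.21 and 0.31.

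**Figure D4:**
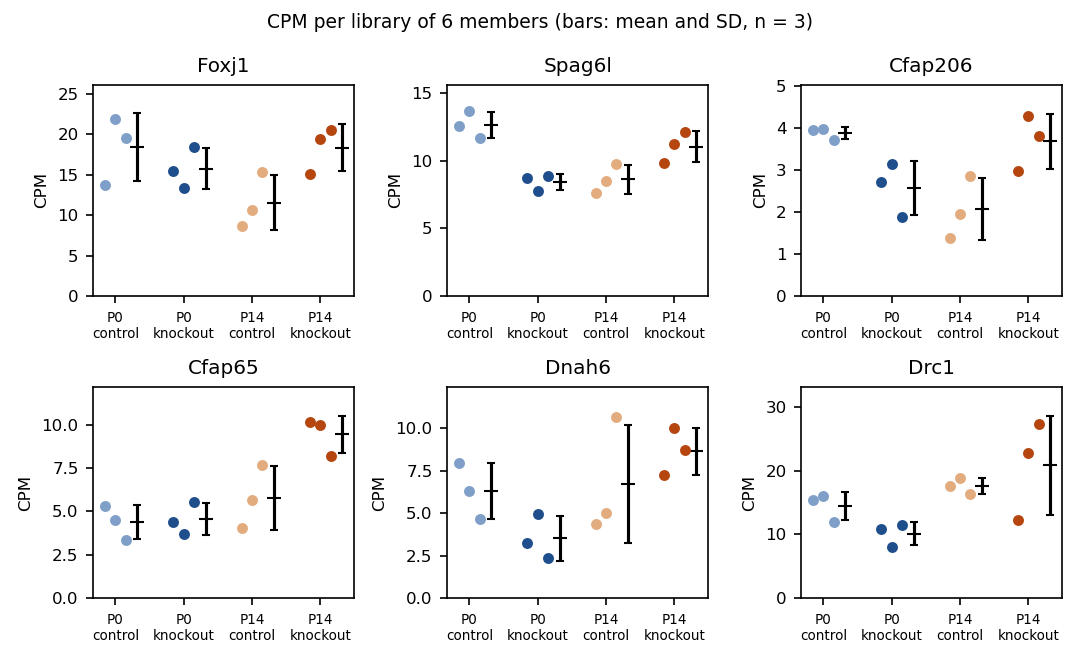
CPM of 6 genes in each of the 12 libraries, with the mean and SD of each group of 3 beside the points. Spag6l and Cfap206 have knockouts below the controls at P0 and above them at P14, and Dnah6 shows 1 P14 control above all knockouts.

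The genotype effect was compared between the ages by the interaction term of a fit on all 12 libraries, in which P14 and P0 share no library. Spag6l and Cfap206 differed between the contexts, both with the P14 effect above the P0 effect. The difference was 0.93 for Spag6l (log2, SE 0.20, edgeR adjusted p 0.0192) and 1.43 for Cfap206 (SE 0.37, edgeR adjusted p 0.0498). For Spag6l the knockouts were at 8.47 ± 0.598 against 12.7 ± 0.976 CPM in the controls at P0, and at 11.1 ± 1.16 against 8.63 ± 1.10 at P14 (SD, n = 3 each). For Cfap206 they were at 2.57 ± 0.646 against 3.87 ± 0.144 CPM, and at 3.69 ± 0.654 against 2.06 ± 0.735. Calls of 2 among 76 genes tested compare with 1.79% of all 18189 genes, and with 1.37% on the higher side. The Cfap206 call sat at the threshold and held in 5 of 18 alternative fits, and that of Spag6l held in 13.

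Of the 76 genes, Spag6l and Cfap206 included, 59 had a difference above 0, 77.6% against 48.7% of all genes, and the median was 0.36 against -0.01. Among the 67 genes tested at both ages, 41 were lower in the knockouts at P0 and higher at P14, 61.2% against 24.3% of all 15643 genes tested at both. A further 15 were higher at both, 9 lower at both, and 2 higher at P0 and lower at P14. For 4 genes, Spag6l, Cfap206, Cfap57 and Cfap161, the groups did not overlap at either age, with the knockouts below at P0 and above at P14. That is 5.97% of the 67, and 1.33% of all genes. Foxj1 had a difference of 0.89 (SE 0.30, edgeR adjusted p 0.168), Dnah5 one of 1.03 (SE 0.33, edgeR adjusted p 0.125), and Drc3 one of 1.05 (SE 0.35, edgeR adjusted p 0.151). Gmnc stood on the other side at -1.07 (SE 0.48, edgeR adjusted p 0.292). By role, the median difference was 0.63 for the dynein heavy chains, 0.74 for the nexin-dynein genes, 0.78 for the central pair, 0.28 for the Cfap genes and 0.19 for the radial spoke genes.

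**Figure D5:**
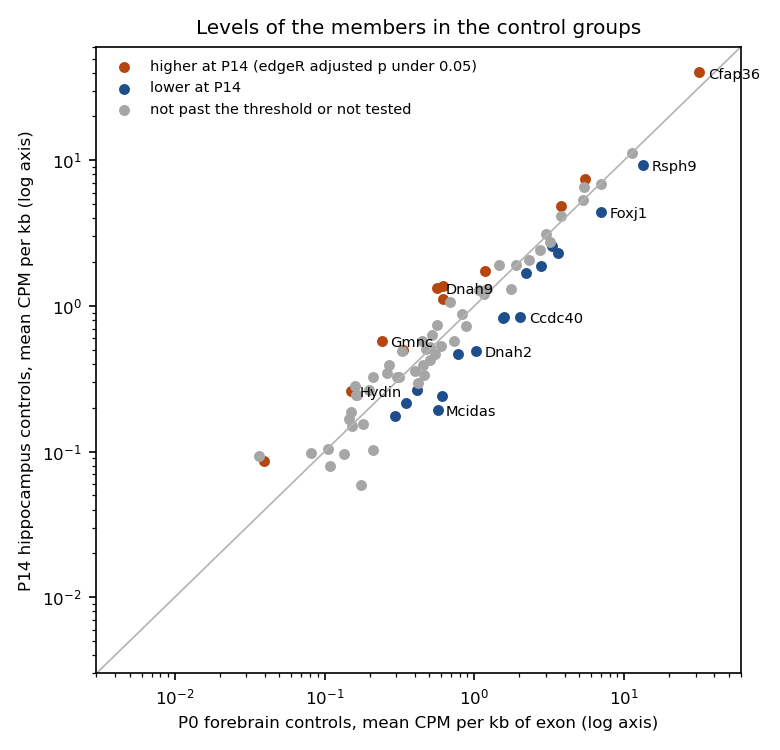
Mean CPM per kb of exon of each gene in the P0 forebrain controls (horizontal, log axis) and in the P14 hippocampus controls (vertical, log axis), with a line of equal levels. Orange and blue points passed the test in the higher and lower direction at P14; genes with no counts in a control group are not drawn. Most points lie near the line, with Gmnc and Dnah9 above it and Mcidas, Ccdc40 and Dnah2 below.

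The control groups alone show how the genes differ between newborn forebrain and P14 hippocampus, where tissue, age, control genotype and library series change together. Of the 76 genes 27 passed the edgeR test, 11 higher and 16 lower at P14. That is 35.5%, against 64.0% of all genes, of which 32.3% were higher and 31.7% lower. The median was 0.03. All 3 regulators changed: Gmnc rose, with a log2 difference of 1.23 (SE 0.34, edgeR adjusted p 0.00351), Mcidas fell by 1.54 (SE 0.42, edgeR adjusted p 0.00281) and Foxj1 fell by 0.67 (SE 0.21, edgeR adjusted p 0.0120). Deup1 and Cdc20b, which serve centriole amplification in cells that are building cilia, fell by 2.32 and 3.48 (edgeR adjusted p 3.91e-07 and 0.000261).

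Parts of the same structure went opposite ways between the controls. Of the dynein chains Dnah9, an outer arm chain, rose from 9.03 ± 1.31 to 21.2 ± 4.23 CPM (log2 difference 1.24, edgeR adjusted p 4.77e-07), and Dnai1 (1.17), Dnah14 (1.09) and Dnah5 (0.57) rose as well. Dnah2 fell from 15.4 ± 0.339 to 7.34 ± 1.31 CPM (log2 difference -1.07, edgeR adjusted p 7.67e-07), and so did Dnah7a (-0.77), whose reads may be shared with its near copies Dnah7b and Dnah7c. Ccdc40 fell from 12.3 ± 2.77 to 5.10 ± 0.350 CPM (log2 difference -1.26, edgeR adjusted p 7.17e-07), while its partner Ccdc39 was at 28.4 ± 2.65 and 31.0 ± 2.41 CPM and did not pass. In the central pair Hydin rose by 0.82 and Spag6l fell by 0.55. Tekt2 and Tekt1 fell by 0.90 and 0.63. Among spoke and regulatory genes Rsph9 fell by 0.52 and Drc3 rose by 0.59. Of the Cfap genes Cfap74 (0.87), Cfap97 (0.44), Cfap410 (0.36) and Cfap36 (0.34) rose. Cfap57 (-1.31), Cfap206 (-0.90), Cfap46 (-0.70), Cfap61 (-0.68), Cfap47 (-0.64) and Cfap69 (-0.38) fell, as did the assembly factor Dnaaf5 (-0.36). These calls differed in how well they held. Dnah9, Dnah2 and Ccdc40 passed in 17 of 17 alternative fits, but Cfap47 and Dnaaf5 in 12, Tekt1 in 11 and Drc3 in 9. The control groups overlapped for Foxj1, Hydin, Tekt1, Dnah5, Cfap36, Cfap46 and Cfap69.

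Outside the 82, other axonemal genes, ependymal markers and intraflagellar transport genes had medians of the same sign. Of 38 other axonemal and dynein docking genes tested at P14, 33 were above 0 with a median of 0.23 and 0 were called, and at P0 24 of 33 were below 0 with a median of -0.16 and 0 called. At an unadjusted p under 0.05 there were 4 of 38 at P14 and 3 of 33 at P0, 10.5% and 9.09%, below the 15.2% and 16.1% of all genes. Of 14 further ependymal markers, 11 were above 0 at P14 (median 0.27) and 10 below 0 at P0 (median -0.11). Of the 14, edgeR called 1 at P14, 7.14% beside 1.99% of all genes. Ccdc153, a marker of ependymal cells, rose from 3.29, 4.46 and 4.58 CPM in the P14 controls to 8.54, 9.19 and 6.86 in the knockouts, a log2 fold change of 1.01 (SE 0.19, edgeR adjusted p 0.0110). Intraflagellar transport and primary cilium genes, which nearly all cells use, had a median of 0.04 at P14 with 21 of 32 above 0, and of -0.10 at P0 with 23 of 32 below 0, and edgeR called 0 at either age. At an unadjusted p under 0.05 there were 2 of 32 at P14 and 6 of 32 at P0, 6.25% and 18.8%, beside 15.2% and 16.1% of all genes.

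Genes of RFX factors were measured as well. Rfx3, which drives ciliary genes in the ependyma and is also expressed by many neurons, fell at P14 from 140, 156 and 150 CPM to 107, 91.7 and 105. The log2 fold change was -0.55 (SE 0.08, edgeR adjusted p 0.00272), and it was the only call among 17 genes of multiciliation and centriole amplification tested at P14, 5.88% where 1.99% of all genes were called. Rfx2 was at 3.17, 3.90 and 3.58 CPM in the P14 controls against 4.07, 5.24 and 4.19, and did not pass (edgeR adjusted p 0.423). At P0 edgeR called 0 of 19 such genes, against 0.909% of all, and 2 of 19 had an unadjusted p under 0.05, against 16.1% of all. Of these 19, 9 were below 0, against 50.1% of all genes, with a median of 0.00. Of the 17 at P14, 11 were above 0, against 48.5% of all, with a median of 0.05. The summed level of all 20 such genes, Rfx3 included, was 353 ± 5.04 CPM in the P14 controls and 311 ± 3.98 in the knockouts (SD, n = 3 each). Rfx3 alone made up 140 to 156 CPM of this sum in the controls and 91.7 to 107 in the knockouts. The lower sum therefore shows no fall of the other genes.

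Markers of neighbouring cells and regions also moved at P14. All 10 dentate granule cell markers were below 0, and edgeR called 7 of them lower, among them Prox1 at -0.76 (edgeR adjusted p 0.00111). Of all genes tested 51.5% were below 0 and 0.773% were called lower. Of 11 striatal markers tested at P14, 9 were above 0, against 48.5% of all genes, with a median of 0.47. The groups were apart on the higher side for 5 of the 11, against 9.41% of all genes. Drd1 rose (1.46, edgeR adjusted p 0.00341) and the others were not called, where 1.99% of all genes were. Of 9 genes on the thalamus and hypothalamus list tested at P14, 7 were below 0, against 51.5% of all genes, with a median of -0.37. Of these 9 edgeR called 3, 33.3% beside 1.99% of all genes. Lef1 (-1.16, edgeR adjusted p 0.00823) and Calb2 (-0.44, edgeR adjusted p 0.00927) fell, and Nkx2-1 (1.49, edgeR adjusted p 0.0388) rose. The groups were apart on the lower side for 5, against 10.6% of all genes. They were apart on the higher side for 2, Nkx2-1 and Six3, against 9.41%. Six3 was at 0.808, 1.73 and 2.00 CPM in the controls against 4.77, 8.82 and 2.86. Gbx2 and Sim1 held at most 2 and 4 counts in any P14 library. The list thus moved both ways, and which tissue its RNA came from was not tested. At P0 all 10 astrocyte markers were below 0, as were 50.1% of all genes, with a median of -0.41. Of the 10, Aqp4 fell (-0.59, edgeR adjusted p 0.0416), where 0.909% of all genes were called. The fall at P0 was not particular to astrocyte markers. All 8 dentate granule markers tested at P0 were below 0 (median -0.47, 1 called). So were all 10 markers of meninges and mural cells (median -0.22, 0 called). Above 0 were 7 of 10 neural progenitor markers (median 0.16, 0 called) and 5 of 7 forebrain and hippocampus identity genes (median 0.30, 1 called). The part of tissue composition and of dissection in the results was not tested.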

How the data were processed

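Counts of reads per Ensembl gene, 1 table per mouse, were made and deposited by the authors. Per the submitters' processing notes, STAR 2.7.5a, edgeR 3.12 and the mm10 (GRCm38) build were used, and the file names give annotation release 102. Trimming and the handling of multiply mapped reads are not given in the sources used here. The unstranded column was used, since the strand columns held 49.9% to 50.0% of their sum, so antisense partners cannot be told apart. Symbols came from GENCODE vM21 for 74 of the 82 genes, and from RefSeq symbols or synonyms for 8 (Dnai1 and Dnai2 are listed as Dnaic1 and Dnaic2).

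From the counts of all genes, edgeR 4.0.16 in R 4.3.3 was run with filterByExpr, TMM, estimateDisp, robust glmQLFit and glmQLFTest, on the 6 libraries of each age for the genotype effects and on all 12 for the interaction and the controls. P-values were Benjamini-Hochberg adjusted over all genes tested, with a threshold of 0.05. The SE was derived from the fold change and its F statistic. Of the 82 genes, 68 could be tested at P0, 73 at P14 and 76 across both. CPM used TMM-scaled library sizes of all 12 libraries, and a pseudocount of 0.5 where logged. DESeq2 1.42.0, other scalings, no filter on low counts, the larger strand column, non-robust fitting, the library number series and leaving out each library were alternatives. The code was tested on simulated data. Each library is a separate mouse per the labels, and litters are not stated. Reads carry no molecular identifiers, so p-values cover the spread between mice and counting error together.

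The genes, lists, named-gene rule and motifs were chosen with earlier results of these data known. Always named were the regulators, ruler, central pair, tektin, nexin-dynein and intermediate chain genes. Called genes, the 5 highest per kilobase in each group and genes with at most 3 counts everywhere were named by rule. Other genes with an unadjusted p under 0.05, and single genes given for their position, were chosen after their values were seen. Promoters are RefSeq's, build GRCm38.p6. Exon 7 and isoforms were not analysed here, and some genes of the marker lists are not reported here.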

Additional observations from a re-analysis of the deposited data

Results flagged for a closer look

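Several genes had a genotype effect at P14 that differed from the effect at P0 by the interaction term of the edgeR fit on 12 libraries. The log2 difference, P14 minus P0, was 1.43 for Cfap206 (SE 0.37, edgeR adjusted p 0.0498) and 0.93 for Spag6l (SE 0.20, edgeR adjusted p 0.0192), both described above. Of the genes reported from the other lists, the striatal markers Drd1 (1.61) and Rgs9 (0.99) had the higher effect at P14. The dentate marker Prox1 (-0.69), the ciliary and neuronal regulator Rfx3 (-0.60) and the forebrain regulator Lhx2 (-0.53) had the lower one. These 5 had edgeR adjusted p-values between 0.00601 and 0.0307. Tissue, age, Cre line and control genotype cannot be told apart in these differences.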

How the results depend on the processing

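No paired analysis was possible because the labels give the mice of different groups no shared replicate numbers. At P0 the count of genes called rose from 0 to 1 with DESeq2, to 2 when low counts were kept, to 2 (Spag6l and Dnah6) when the number series entered the model and to 6 in the 4 libraries of the first series (an alternative chosen after seeing the data, where the median was -0.25). Leaving out each library gave 0 to 1 calls and medians from -0.20 to -0.08 (lowest -0.196, highest -0.0773). At P14 the count rose to 2 with DESeq2 and 5 when low counts were kept, and leaving out each library gave 0 to 12 calls and medians from 0.13 to 0.41. The interaction count of 2 became 7 when low counts were kept, 1 for the larger strand column and 1 under non-robust fitting, and 0 to 6 when each library was left out, with medians from 0.25 to 0.52. It was 3 with DESeq2. Keeping low counts called 1.99%, 2.48% and 1.83% of all genes in these 3 comparisons. Spag6l passed in 13 of 18 alternatives (edgeR or DESeq2 adjusted p 0.00281 to 0.0685) and Cfap206 in 5 of 18 (0.0104 to 0.256), each in the same direction in all 18. The median between the controls ranged from -0.12 to 0.16 without single libraries. The share of promoters with the forkhead core was 1.30% in the last 100 bases, and 5.2% in 250. Dnah14 at P14 reversed to -0.17 in the larger strand column. The cause of these changes was not tested. Summed CPM was also computed with DESeq2 size factors, added after seeing the data, and stayed within 1 SD of the replicates in the 4 groups. Most of the genes hold few reads: the group medians lie between 0.51 and 0.67 CPM per kb, which limits what 3 mice a group can resolve.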
